A study of Arabidopsis thaliana with 6 samples.

Results

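The AP1, FUL and SOC1 clade MADS-box genes of Arabidopsis thaliana were followed in whole seedlings of the wild type and of a pair of mutants. The 8 genes were taken by gene identifier from the 34262 features of the deposited table, and all 8 were present. The list was chosen with earlier results of these data known. They were AP1 (AT1G69120), CAL (AT1G26310) and FUL (AT5G60910) of the AP1 and FUL clade, SOC1 (AT2G45660), AGL42 (AT5G62165), AGL71 (AT5G51870) and AGL72 (AT5G51860) of the SOC1 clade, and AGL24 (AT4G24540), a relative of SVP that acts with SOC1. The genotypes were Col-0, the wild type, lhp1-3, a mutant of LHP1 in the Col-0 background, and importin123, a mutant of several importin alpha genes in the same background, with 2 libraries each. All seedlings grew in long days with 16 h of light, on sucrose-containing MS medium, and were taken at ZT12, 12 h after dawn. LHP1 is a chromatin protein that reads the Polycomb mark H3K27me3, and importin alpha proteins are adaptors that carry cargo into the nucleus. The age of the seedlings and the number of plants in a library are not stated in the labels.

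These genes encode MIKC-type MADS-domain transcription factors that bind DNA as dimers and stand between flowering-time signals and the making of flowers. In Arabidopsis, the mobile protein FT acts with FD at the shoot apex and raises SOC1, FUL and later AP1, while SVP and FLC repress SOC1. SOC1 and AGL24 act on the floral meristem gene LFY, and AP1 and CAL then set floral meristem identity, so seedlings before the floral transition are known for low AP1 and CAL.

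The DNA that encodes the start of the MADS domain is shown first because it defines the family and shows how close the copies are that reads must tell apart. The first 90 coding bases of each gene, each within 1 exon, are given 5′ to 3′ from the RefSeq annotation of TAIR10.1, with capitals at bases that differ from SOC1.
AP1, chr1:25986013-25986102 (minus strand): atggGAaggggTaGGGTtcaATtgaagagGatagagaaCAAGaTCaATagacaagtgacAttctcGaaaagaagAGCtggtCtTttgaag
CAL, chr1:9103421-9103510 (minus strand): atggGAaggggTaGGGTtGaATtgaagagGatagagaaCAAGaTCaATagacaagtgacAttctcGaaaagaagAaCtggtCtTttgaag
FUL, chr5:24505924-24506013 (minus strand): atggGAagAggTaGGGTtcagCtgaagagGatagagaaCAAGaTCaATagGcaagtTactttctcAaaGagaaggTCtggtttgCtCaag
SOC1, chr2:18810104-18810193 (minus strand): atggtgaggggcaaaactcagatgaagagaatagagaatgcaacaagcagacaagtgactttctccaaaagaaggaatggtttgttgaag
AGL42, chr5:24965075-24965164 (plus strand): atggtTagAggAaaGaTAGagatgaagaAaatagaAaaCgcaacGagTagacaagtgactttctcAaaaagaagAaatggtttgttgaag
AGL71, chr5:21087834-21087923 (minus strand): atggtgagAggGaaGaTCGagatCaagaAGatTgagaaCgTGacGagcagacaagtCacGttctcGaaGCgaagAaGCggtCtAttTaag
AGL72, chr5:21084037-21084126 (minus strand): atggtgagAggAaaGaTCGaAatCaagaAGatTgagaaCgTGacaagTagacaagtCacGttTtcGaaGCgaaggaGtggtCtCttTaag
AGL24, chr4:12673556-12673645 (minus strand): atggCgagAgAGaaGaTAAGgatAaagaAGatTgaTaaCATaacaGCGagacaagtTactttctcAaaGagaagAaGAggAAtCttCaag
Within these bases CAL differed from AP1 at 2 positions and AGL72 differed from AGL71 at 8, whereas AGL24 differed from SOC1 at 30. Over the aligned coding sequences AP1 and CAL were 84.3% identical, AGL71 and AGL72 75.2%, and SOC1 and AGL42 70.4%. The longest run shared by the whole spans of AP1 and CAL was 56 bp, and that of AGL71 and AGL72 was 23 bp. A read that lies wholly within a shared run could be placed on either gene of the pair. AGL72 and AGL71 lie next to each other on chromosome 5, with 1034 bp and 0 annotated genes between them, and none of the 8 genes overlaps another annotated gene. Counting ran over whole gene spans, and introns made up 55.2% to 70.9% of the span of each of these genes.

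Total counts were 70137900 to 95101900 per library. Reads on nearly silent genes were more frequent in the mutants: over the 2305 protein-coding genes of lowest level, a set that holds AP1, CAL, AGL71 and AGL72 themselves, the median RPKM (counts per kb of gene span, scaled to the library total) was 0.207 and 0.249 for Col-0 against 1.53 and 1.45 for lhp1-3 and 1.79 and 1.32 for importin123. This median is called the floor of a library, and each gene is given as deposited and, where it stood high enough, after subtracting the floor. The source of these reads was not tested, and the subtraction takes them to be equal per kb over all genes of a library. LHP1 transcript differed by −1.0 ± 0.16 (log2, SE, floor subtracted) in lhp1-3, and IMPA1, IMPA2 and IMPA3 differed by −3.50, −5.41 and −1.86 in importin123, all past the test. Of the tissue markers, 5 of 5 leaf and 5 of 5 root genes stood above the 95th percentile of silent genes in every library, as did the meristem genes STM and KNAT1, 2 of 5. CLV3, WUS and KNAT2, the other meristem markers, did so in both libraries of no genotype. Separate plantings for the replicates are not named in the labels, and the spread that p-values rest on may therefore be technical, between libraries only.

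**Figure D1:**
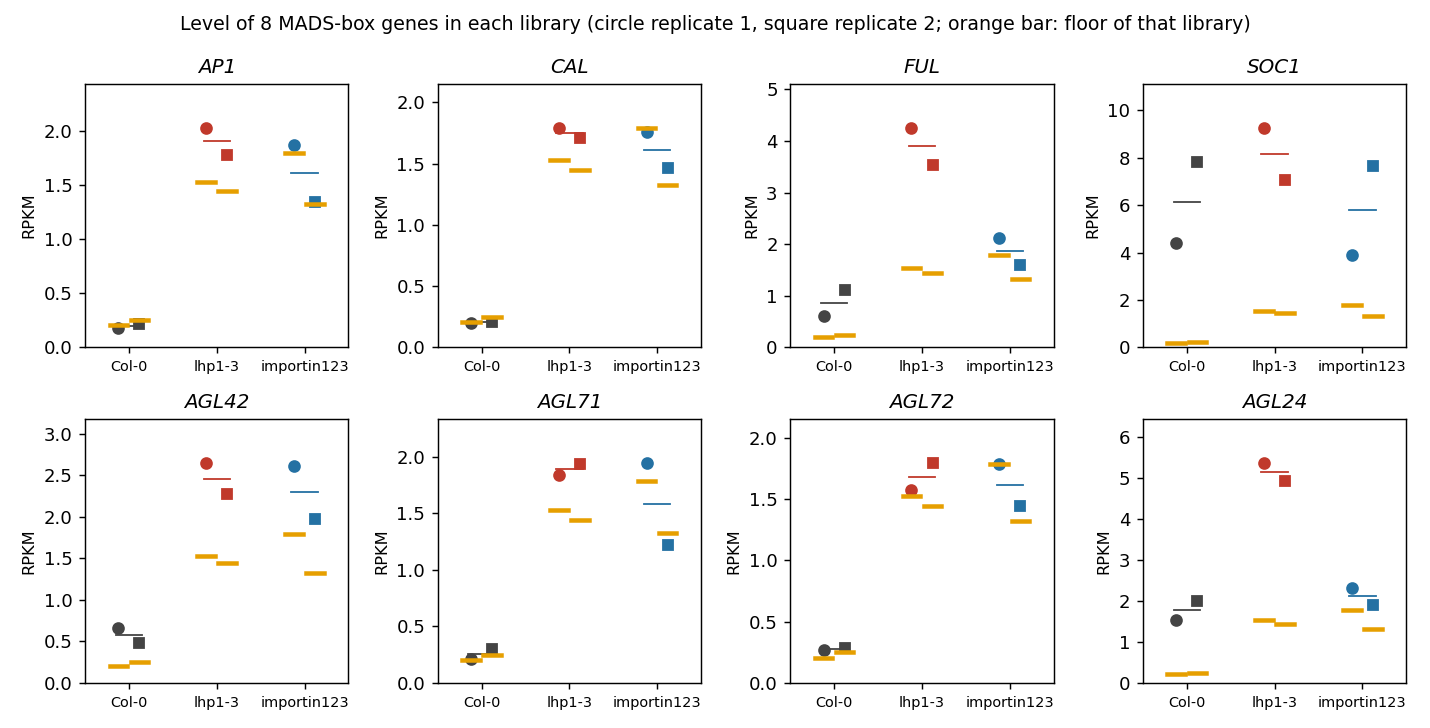
RPKM of each of the 8 genes in the 6 libraries, with circles and squares for replicates 1 and 2, a thin line at the mean of each genotype and orange bars at the floor of each library. AP1, CAL, AGL71 and AGL72 lie close to the orange bars in all libraries, whereas SOC1 lies above them throughout and FUL and AGL24 lie well above them in Col-0 and lhp1-3.

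The floral meristem identity genes AP1 and CAL were not separated from silent genes in Col-0 or importin123. AP1 stood at 0.178 and 0.220 RPKM in the Col-0 libraries, 2.03 and 1.77 in the lhp1-3 libraries, and 1.87 and 1.34 in importin123. The mutant libraries were higher than the Col-0 libraries without overlap, and so were their floors. Relative to the floor, AP1 was at 0.863 and 0.885 times in Col-0, at 1.33 and 1.23 times in lhp1-3, and at 1.05 and 1.01 times in importin123. In whole seedlings fewer cells of a type and less RNA per cell cannot be told apart. The lhp1-3 libraries were the highest, with AP1 above 99.0% and 94.2% of the silent genes. CAL, the close copy of AP1, was at 0.202 and 0.210 RPKM in Col-0, at 1.79 and 1.71 in lhp1-3, and at 1.76 and 1.46 in importin123. At 0.844 to 1.18 times the floor, CAL lay inside the 5th to 95th percentile of silent genes in all 6 libraries.

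In the deposited counts AP1 rose by 2.79 ± 0.22 (log2, SE) in lhp1-3 and by 2.47 ± 0.22 in importin123, with adjusted p of 4.8e-08 and 1.1e-07 by edgeR's quasi-likelihood test. CAL rose by 2.64 and 2.43 in the same fits. The silent genes had a median of 2.23 in lhp1-3, with a 5th to 95th percentile of 1.48 to 2.89, and a median of 2.22 in importin123, with 1.46 to 2.86. The values of AP1 and CAL fell inside these ranges, and AP1 and CAL are among the silent genes.

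FUL, which acts in the inflorescence meristem beside AP1 and later in the fruit valves, was above the silent genes in both Col-0 and lhp1-3 and higher in lhp1-3. FUL stood at 0.612 and 1.11 RPKM in the Col-0 libraries, 4.26 and 3.53 in the lhp1-3 libraries, and 2.12 and 1.60 in importin123. Above the floor, these levels were 0.632 ± 0.320 RPKM (SD, n = 2) in Col-0, 2.40 ± 0.458 in lhp1-3 and 0.303 ± 0.0328 in importin123. Both lhp1-3 libraries exceeded both Col-0 libraries, which themselves differed from each other by 0.92 on the log2 scale after subtraction, more than 98.0% of the 19796 genes tested there. In importin123 FUL was at 1.18 and 1.21 times the floor, above 89.8% and 91.3% of silent genes and thus within their range.

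After subtraction FUL rose by 2.21 ± 0.36 (log2, SE, 95% interval 1.37 to 3.06) in lhp1-3, with an adjusted p of 0.0083 by edgeR's quasi-likelihood test. The deposited counts gave a rise of 1.72 ± 0.28 (adjusted p = 0.00088 by the same test), inside the silent-gene range of 1.48 to 2.89. Without lhp1-3 replicate 1 the subtracted value was 2.03 and its adjusted p was 0.0765, and without Col-0 replicate 2 it was 2.85. FUL passed the filter on height above the floor through its lhp1-3 level, since its mean height was 1.11 floors over all libraries and 0.601 without lhp1-3.

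In importin123 FUL gave −0.80 ± 0.37 (95% interval −1.67 to 0.07, adjusted p = 0.125 by edgeR) after subtraction and 0.57 ± 0.28 (adjusted p = 0.098) as deposited, so neither passed. By limma on the deposited RPKM it did pass, as higher, at 0.63 on log2(RPKM + 1) (adjusted p = 0.0133) and 1.07 on log2(RPKM + 0.1) (adjusted p = 0.0129). The sign depended on the floor, with 0.12 at 0.75 times the floor. The call also turned on the Col-0 libraries: without Col-0 replicate 1 the subtracted value was −1.26 (adjusted p = 0.00755), and without Col-0 replicate 2 it was −0.15 and the deposited value was 1.08 (adjusted p = 3.17e-07). Set directly against lhp1-3, whose floor was alike, FUL was lower in importin123, with a log2 difference of −3.01 ± 0.38 after subtraction (adjusted p = 0.0022 by edgeR) and −1.15 ± 0.27 as deposited (adjusted p = 0.041). The subtracted value is a description, since FUL entered that test through its lhp1-3 level. With no filter on height it was −3.03 (adjusted p = 0.0035 by edgeR). The deposited difference did not pass without any 1 of the lhp1-3 or importin123 libraries, at −1.0 to −1.27.

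SOC1, which joins the photoperiod, ageing and vernalization inputs, was the most abundant of the 8 genes per length in every genotype and differed mainly between replicates. SOC1 stood at 4.42 and 7.82 RPKM in the Col-0 libraries, 9.27 and 7.08 in the lhp1-3 libraries, and 3.89 and 7.67 in importin123. The 3 genotypes overlapped, and replicate 2 was 1.77 times replicate 1 in Col-0 and 1.97 times in importin123, whereas in lhp1-3 replicate 1 was 1.31 times replicate 2. After subtraction the importin123 replicates differed by 1.38 on the log2 scale, more than 99.8% of tested genes, where the median gene differed by 0.16. The Col-0 replicates differed by 0.85, more than 97.7% of genes.

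SOC1 did not pass in any of the 3 comparisons, as deposited or after subtraction. After subtraction SOC1 gave 0.48 ± 0.51 in lhp1-3 (95% interval −0.79 to 1.74, adjusted p = 0.565 by edgeR) and −0.26 ± 0.51 in importin123 (−1.53 to 1.02, adjusted p = 0.715). Against lhp1-3 it gave −0.74 ± 0.51 in importin123 (−2.02 to 0.54, adjusted p = 0.362). The deposited values in the same order were −0.04 ± 0.53, −0.61 ± 0.53 and −0.57 ± 0.53. The intervals reach past 1 log2 unit, so they do not show that SOC1 was alike in the 3 genotypes. Without importin123 replicate 2 the subtracted value in importin123 was −1.14 (adjusted p = 0.107), and without importin123 replicate 1 it was 0.28. Without Col-0 replicate 1 the deposited value in importin123 was −0.98, with an adjusted p of 0.000284. The deposited value against lhp1-3 stayed at −0.57 but passed without Col-0 replicate 1 (adjusted p = 0.0435) and with only the 4 libraries compared (adjusted p = 0.0416).

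AGL42, AGL71 and AGL72 are SOC1-like genes known to promote flowering at the apical and axillary meristems. AGL42 stood at 0.660 and 0.486 RPKM in the Col-0 libraries, 2.65 and 2.27 in the lhp1-3 libraries, and 2.62 and 1.98 in importin123. It was above the 95th percentile of silent genes in all 6 libraries, at 3.19 and 1.95 times the floor in Col-0, at 1.73 and 1.57 in lhp1-3, and at 1.46 and 1.49 in importin123. Its height over the floor was 0.345 ± 0.153 RPKM in Col-0, 0.973 ± 0.208 in lhp1-3 and 0.740 ± 0.124 in importin123 (SD, n = 2), and the mutant libraries did not overlap Col-0.

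AGL42 missed the filter on height, with a mean of 0.642 floors above the floor, so it was tested in the deposited counts, where it rose by 1.66 ± 0.18 in lhp1-3 and 1.47 ± 0.18 in importin123. Both values lay near the lower end of the silent-gene range. With no filter on height the subtracted values were 1.73 (adjusted p = 0.025 by edgeR) and 1.30 (adjusted p = 0.031). The neighbours AGL71 and AGL72 were at 0.923 to 1.34 times the floor in all libraries. AGL71 reached its highest ratios, 1.21 and 1.34, in lhp1-3, above 93.6% and 99.0% of silent genes. In deposited counts AGL71 rose by 2.43 and 2.08 and AGL72 by 2.16 and 2.01 in lhp1-3 and importin123, inside the silent-gene range.

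**Figure D2:**
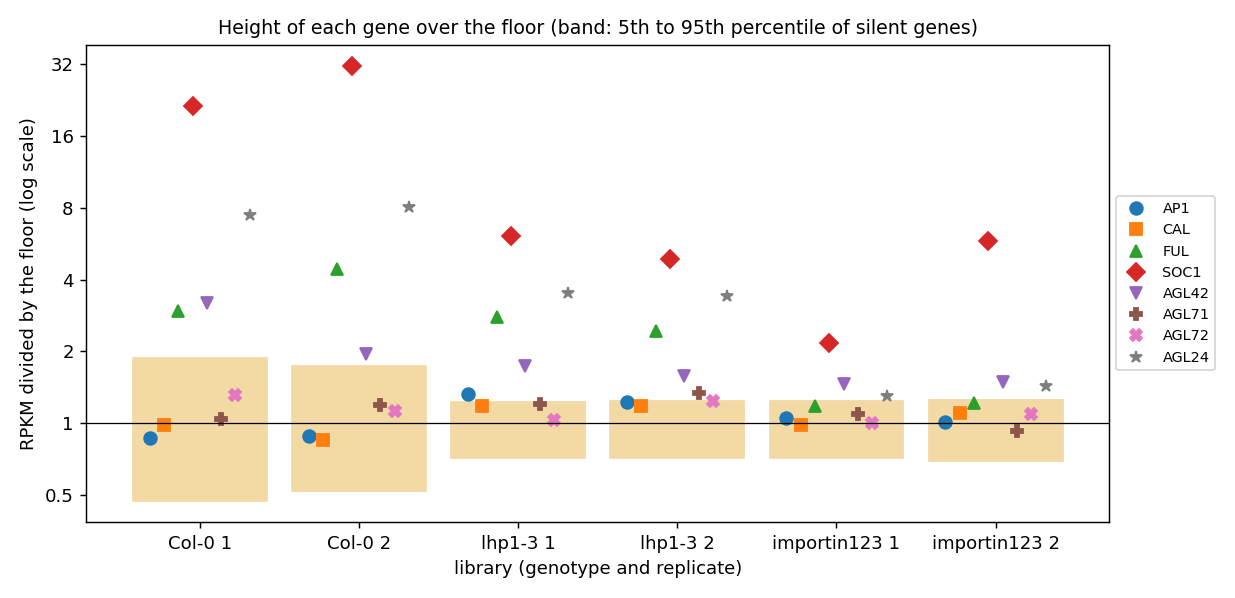
RPKM of each of the 8 genes divided by the floor of its library, on a log axis, for the 6 libraries, with a band from the 5th to the 95th percentile of silent genes. FUL is above the band in Col-0 and lhp1-3 and inside it in importin123, AGL24 is at 7.45 and 8.04 times the floor in Col-0 and at 1.30 and 1.43 in importin123, and SOC1 and AGL42 are above the band in every library.

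AGL24, which promotes flowering with SOC1 and is repressed later in floral meristems, was higher in lhp1-3 and, after subtracting the floor, lower in importin123. AGL24 stood at 1.54 and 2.0 RPKM in the Col-0 libraries, 5.37 and 4.94 in the lhp1-3 libraries, and 2.33 and 1.90 in importin123. As deposited, importin123 overlapped Col-0, while lhp1-3 was above both. Above the floor the levels were 1.54 ± 0.298 RPKM in Col-0, 3.67 ± 0.245 in lhp1-3 and 0.555 ± 0.0227 in importin123 (SD, n = 2), and no genotypes overlapped. In importin123 AGL24 was still above 98.1% and 99.5% of silent genes.

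AGL24 rose in lhp1-3 by 1.55 ± 0.18 after subtraction (95% interval 1.12 to 1.97, adjusted p = 0.0019 by edgeR) and by 1.09 ± 0.15 as deposited (adjusted p = 1.1e-05). The deposited rise lay under the silent-gene range. In importin123 it fell by 1.22 ± 0.19 on the log2 scale after subtraction (95% interval −1.66 to −0.77, adjusted p = 0.0023). The deposited value there was −0.28 ± 0.15 with an adjusted p of 0.10, so the call rests on the subtraction. Without Col-0 replicate 1 the deposited value was −0.48, with an adjusted p of 0.00962. The subtracted value was −0.64 (adjusted p = 0.019) at 0.75 times the floor and −2.81 (adjusted p = 0.00089) with the floor raised by 25%. Between the mutants AGL24 was lower in importin123, with a log2 difference of −2.76 ± 0.20 after subtraction (adjusted p = 0.00018) and −1.37 ± 0.15 as deposited (adjusted p = 1.1e-05).

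Because FUL and AGL24 both rose in lhp1-3, the 300 bases before each annotated start were read from the RefSeq TAIR10.1 genome and are given 5′ to 3′, with GTAC, the core bound by SPL proteins, in capitals.
FUL upstream, chr5:24506270-24506569 (minus strand): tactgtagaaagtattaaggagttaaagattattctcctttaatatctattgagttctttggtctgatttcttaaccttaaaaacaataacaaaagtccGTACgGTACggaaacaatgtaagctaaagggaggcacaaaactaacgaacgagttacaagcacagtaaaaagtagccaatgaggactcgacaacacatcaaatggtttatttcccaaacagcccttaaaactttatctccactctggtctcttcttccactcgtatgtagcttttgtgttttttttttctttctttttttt
AGL24 upstream, chr4:12674107-12674406 (minus strand): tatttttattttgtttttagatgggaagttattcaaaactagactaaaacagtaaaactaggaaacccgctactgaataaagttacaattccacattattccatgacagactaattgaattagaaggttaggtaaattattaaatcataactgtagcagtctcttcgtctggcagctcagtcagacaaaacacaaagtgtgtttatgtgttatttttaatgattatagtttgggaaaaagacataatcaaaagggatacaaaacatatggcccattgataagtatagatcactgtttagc
GTAC is its own reverse complement, so 1 search covers both strands. FUL held 2 copies, AP1 2 and SOC1 1, and the other 5 genes held 0. GTAC was present in 39.7% of 27443 such windows, so 3 of 8 is near the background. The CArG box, the site type bound by MADS proteins, was found on either strand in 0 of 8 windows and in 2.92% of all windows. ACGT, also its own reverse complement, was present in 4 of 8 windows, AP1, CAL, AGL71 and AGL72, and in 49.0% of all. These matches describe letters in the windows only.

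Counted over the family, 7 of 8 genes rose and 0 fell in lhp1-3 in the deposited counts, beside 41.8% and 33.5% of all 33906 features tested (75.3% in either direction). In importin123 5 rose and 0 fell, beside 42.3% and 33.2% of features (75.5% in all). Between importin123 and lhp1-3 0 were higher and 2, FUL and AGL24, were lower, beside 2.84% and 6.05% (8.89% in all). The medians of the 8 genes were 1.94, 1.74 and −0.34 in these comparisons, beside 0.17, 0.20 and −0.03 over all features. Of the silent genes, which include AP1, CAL, AGL71 and AGL72, 99.3% were called in lhp1-3 and 99.4% in importin123. Their medians were 2.23 and 2.22, above those of the 8 genes. Between the mutants 0% of the silent genes were called, with a median of −0.02. Reference genes moved in the same fits, with 4 of 4 falling in both mutants, by medians of −0.68 and −0.71.

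After subtraction FUL, SOC1 and AGL24 were tested and the other 5 were not. In lhp1-3 2 of 3, AGL24 and FUL, rose and 0 fell; since FUL entered through its lhp1-3 level, this count is a description, beside 9.86% and 6.25% of 19796 genes (16.1% in all). In importin123 0 rose and 1 fell, beside 20.3% and 21.0% (41.3% in all). Against lhp1-3, 0 were higher and 2, FUL and AGL24, lower in importin123, beside 8.76% and 13.6% (22.4% in all). This count too is a description, since FUL entered through its lhp1-3 level. Of the 4 reference genes 0 passed in either mutant. Both mutants were set against the same Col-0 libraries, so their values share that error and are given side by side only.

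**Figure D3:**
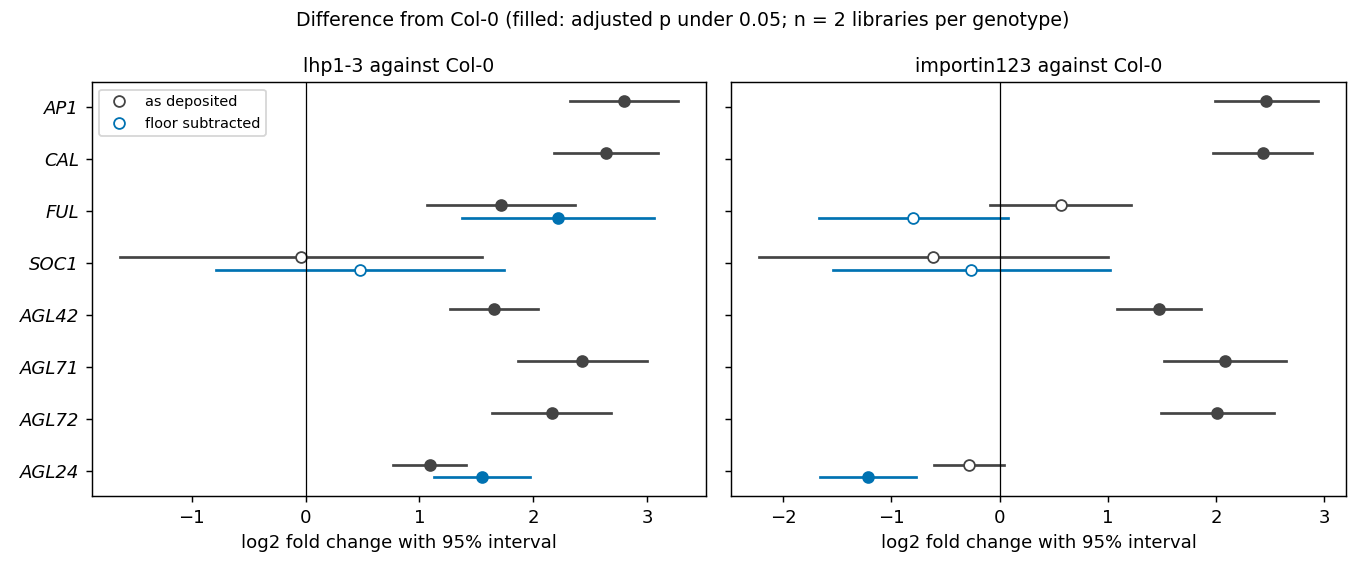
Log2 fold change against Col-0 with 95% intervals for each of the 8 genes in lhp1-3 and importin123, from deposited counts and after subtracting the floor, with filled points for an adjusted p under 0.05. FUL and AGL24 are above 0 on both scales in lhp1-3, AGL24 is below 0 in importin123 after subtraction, and the SOC1 intervals cross 0 in each panel.

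SOC1, AGL24, FUL and AGL42 followed in the same order of level per length in Col-0 and lhp1-3, and the lower ranks were not resolved. In Col-0 the order by mean RPKM was SOC1 at 6.12, AGL24 at 1.77, FUL at 0.860, AGL42 at 0.573, AGL72 at 0.276, AGL71 at 0.255, CAL at 0.206 and AP1 at 0.199. The ranges of the neighbours FUL and AGL42, AGL72 and AGL71, and CAL and AP1 overlapped. In lhp1-3 SOC1 at 8.17, AGL24 at 5.16, FUL at 3.89 and AGL42 at 2.46 stood apart from each other, and AP1, AGL71, CAL and AGL72 followed at 1.90 to 1.68. In importin123 SOC1 at 5.78 stood apart, and the other 7 lay between 2.30 and 1.58 with every neighbour overlapping the next.

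Markers of several tissues also differed between the genotypes. The 5 leaf markers summed to 11806 to 12428 RPKM above the floor in Col-0, 7201 to 8829 in lhp1-3 and 6226 to 8014 in importin123, and the 5 root markers to 67.2 to 68.7, 46.0 to 50.4 and 43.2 to 43.9. Neither mutant overlapped Col-0 in these sums, but single markers did not all follow them. After subtraction 2 of 5 leaf markers rose and 3 fell in importin123, beside 20.3% and 21.0% of all genes. Of the 4 root markers tested 0 rose and 2 fell there, with values from −1.04 to 1.77. In lhp1-3 0 rose and 1 fell in each list, beside 9.86% and 6.25% of all genes. The 6 floral organ and ovule markers summed to 0.507 to 0.597 RPKM above the floor in Col-0, 1.16 to 2.03 in lhp1-3 and 0.965 to 1.17 in importin123. Only SHP1 in Col-0, and SHP1 and SHP2 in lhp1-3, exceeded the silent genes in both libraries, and 0 of 6 did in importin123. The 5 meristem markers summed to 2.75 to 3.24 RPKM above the floor in Col-0, 3.56 to 5.69 in lhp1-3 and 2.89 to 4.56 in importin123. Only 1 of the 5, KNAT1, was tested after subtraction. KNAT1 rose in lhp1-3 by 1.10 ± 0.25 (adjusted p = 0.025 by edgeR), where 9.86% of all genes rose. It gave 0.39 ± 0.25 in importin123 (adjusted p = 0.243). Above the floor STM had a mean of 1.03 RPKM in Col-0 and 1.24 in lhp1-3, and WUS of 0.0873 and −0.138. The 5 seed markers summed to 194 to 246 RPKM in Col-0, 31.5 to 31.97 in lhp1-3 and 373 to 588 in importin123. The part of these tissue differences in the values of FUL and AGL24 was not tested.

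Closest relatives outside the 8 genes were AGL79 of the AP1 and FUL clade, AGL14 and AGL19 of the SOC1 clade, and SVP beside AGL24. SVP, a repressor of SOC1, was the 1 of 4 tested after subtraction, at 16.8 and 17.7 RPKM in Col-0, at 10.05 and 9.76 in lhp1-3, and at 7.90 and 9.97 in importin123. SVP fell by 0.71 ± 0.12 in lhp1-3 (adjusted p = 0.0086 by edgeR) and by 0.95 ± 0.12 in importin123 (adjusted p = 0.0010), on the log2 scale. Without lhp1-3 replicate 1 SVP gave −0.71 in lhp1-3, with an adjusted p of 0.0763. AGL79, AGL19 and AGL14 rose in deposited counts by 2.69, 1.56 and 1.07 in lhp1-3 and by 2.58, 1.46 and 0.55 in importin123. These values were inside or under the silent-gene range, and AGL79 and AGL19 are themselves among the silent genes.

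Of 11 activators that act before these genes, 5 were tested after subtraction, and in lhp1-3 3 rose and 0 fell, with a median of 0.99, where 9.86% of all genes rose and 6.25% fell. The 3 were FT, the mobile flowering signal, at 2.30 ± 0.36 (adjusted p = 0.010), SPL4 at 2.77 ± 0.53 (adjusted p = 0.015) and SPL3 at 0.99 ± 0.21 (adjusted p = 0.021), the last pair being ageing-pathway factors. Without lhp1-3 replicate 1 they gave 2.07, 2.36 and 0.98, with adjusted p of 0.0684, 0.106 and 0.108. FT gave 2.17 without Col-0 replicate 2 (adjusted p = 0.0568) and 2.37 with the floor raised by 25% (adjusted p = 0.0659). The adjusted p of SPL3 was 0.0811 to 0.108 without any 1 of the Col-0 or lhp1-3 libraries (log2 0.88 to 1.06). FT, SPL3 and SPL4 in lhp1-3, and FT and SPL4 in importin123, are named after their values were seen. In importin123 1 rose and 1 fell, with a median of −0.59 beside 0.01 over all genes, of which 20.3% rose and 21.0% fell. As deposited, 8 of 11 rose and 0 fell in lhp1-3, beside 41.8% and 33.5% of features. Also as deposited, 4 rose and 2 fell in importin123, near the 42.3% and 33.2% of all features. The importin123 values of SPL4, SPL3 and FT that follow are after subtraction, except where FT is given as deposited. SPL4 rose by 1.75 ± 0.52 (adjusted p = 0.033), a call lost without either lhp1-3 library (1.75 and 1.74, adjusted p = 0.0529 and 0.0547), without Col-0 replicate 1 (1.46, adjusted p = 0.109) and without importin123 replicate 1 (0.87, adjusted p = 0.193). It was also lost with the replicate block (1.59, adjusted p = 0.0513), with only the 4 libraries compared (1.74, adjusted p = 0.0547) and with the floor raised by 25% (1.61, adjusted p = 0.0825). SPL3 fell by 0.95 ± 0.22 on the log2 scale (adjusted p = 0.0125), and without Col-0 replicate 2 it gave −0.87 (adjusted p = 0.0684). FT gave −0.65 ± 0.36 (adjusted p = 0.200) there, and −1.36 (adjusted p = 0.010) without importin123 replicate 2. As deposited FT fell by 0.40 ± 0.16 on the log2 scale (adjusted p = 0.0285). Leaving out the first library of Col-0 (−0.32), of lhp1-3 (−0.32) or of importin123 (−0.11) ended that call, as did fits with only the 4 libraries compared (−0.39) or nuclear genes only (−0.30).

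LFY and TSF, a floral meristem regulator and a relative of FT, were tested as deposited only. They rose by 2.19 and 1.80 in lhp1-3 and by 1.93 and 1.86 in importin123, inside the silent-gene range. TSF is itself among the silent genes. CO, the day-length factor that acts on FT, rose by 0.73 ± 0.18 as deposited in lhp1-3, and FDP, a relative of FD, rose by 0.81 ± 0.28 in importin123, both under that range.

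Of 18 repressors, 14 were tested after subtraction. In lhp1-3 1 rose and 7 fell, beside 9.86% and 6.25% of all genes, with a median of −0.47. The falls with the smallest adjusted p were SVP, and TOE1 and SMZ, AP2-type repressors of FT, which fell by 0.98 ± 0.11 and 1.35 ± 0.18 on the log2 scale (adjusted p = 0.0014 and 0.0030). In importin123 2 rose and 4 fell, near the 20.3% and 21.0% of all genes, with a median of 0.06. As deposited, 6 of 18 rose in each mutant, beside 41.8% and 42.3% of features. In the same counts 10 fell in lhp1-3 and 8 in importin123, beside 33.5% and 33.2%. The values of MAF2, AP2, TEM2 and TOE1 that follow are for importin123 after subtraction. MAF2, a relative of FLC, rose by 0.78 ± 0.18 (adjusted p = 0.0117), and gave 0.62 without importin123 replicate 1 (adjusted p = 0.0777). AP2 fell by 0.73 ± 0.10 on the log2 scale (adjusted p = 0.0014), as did TEM2, a repressor of FT, by 0.64 ± 0.15 (adjusted p = 0.0129). TEM2 did not pass without Col-0 replicate 2 (−0.53) or importin123 replicate 2 (−0.55). TOE1 gave 0.06 ± 0.11 (adjusted p = 0.667) there. MAF5, TFL1 and FLC rose as deposited by 1.30, 1.64 and 0.82 in lhp1-3, and MAF5 and TFL1 by 1.26 and 0.97 in importin123. These values were within or under the silent-gene range, and MAF5 is itself among the silent genes.

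**Figure D4:**
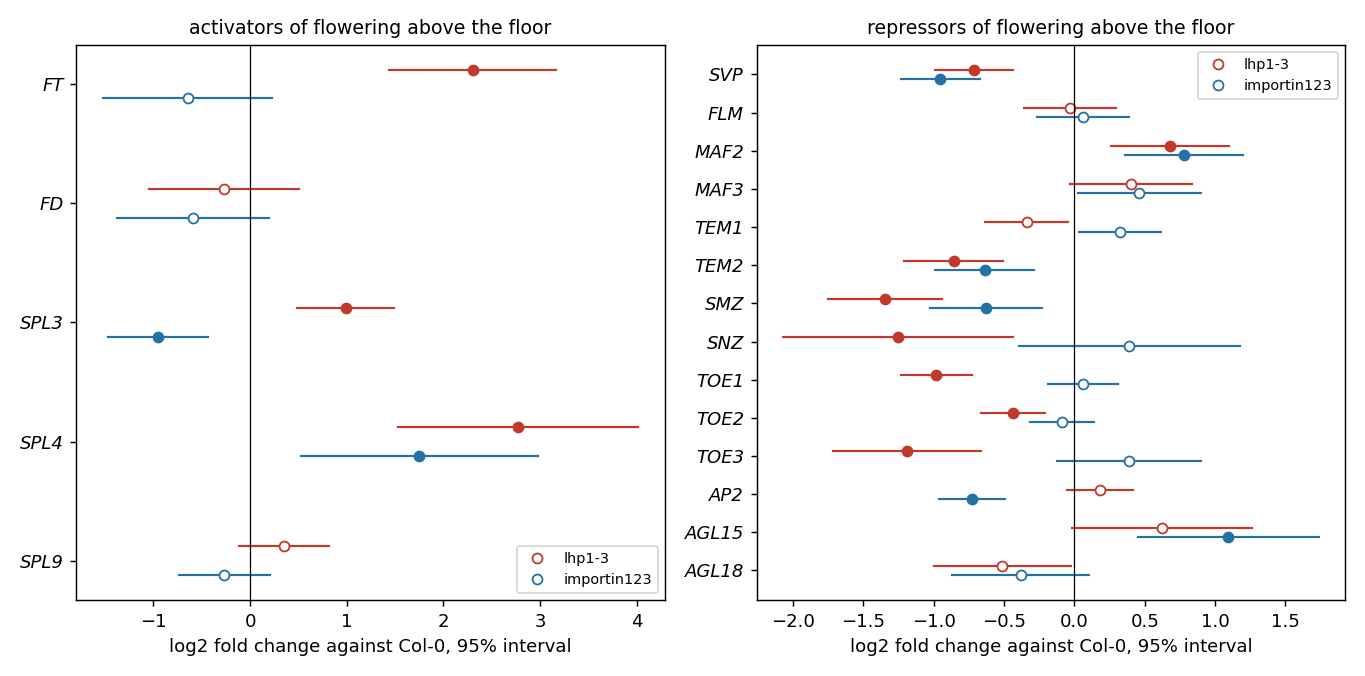
Log2 fold change against Col-0 after subtracting the floor, with 95% intervals, for the 5 activators and 14 repressors of flowering that stood high enough above it, in lhp1-3 and importin123, with filled points for an adjusted p under 0.05. FT, SPL3 and SPL4 are above 0 in lhp1-3, where SVP, TOE1 and SMZ are below 0, and SVP is below 0 in both mutants.

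Genes that act beside the 8 in the flower, a list of 8, were also read. The list holds MADS partners of the 8 proteins and UFO, which encodes no MADS-domain protein. As deposited, 8 of 8 rose in lhp1-3, and 6 rose and 1 fell in importin123, beside the shares of all features and of silent genes given above. After subtraction 5 were tested, and SEP1, SEP3, AP3 and PI entered that test largely through their lhp1-3 level, so no count is given over the 5. PI and AP3 passed there as higher for importin123 against Col-0, at 2.89 ± 0.24 (adjusted p = 0.00019 by edgeR) and 3.54 ± 1.03 (adjusted p = 0.033). PI had a mean of 1.33 RPKM above the floor for importin123, against 0.219 for Col-0, and exceeded 100% of silent genes in each importin123 library. AP3 lay within the range of silent genes in every library of these genotypes, so the size of its value is not a measure. SEP4, which forms complexes with AP1, stood at 2.48 and 2.82 RPKM in the Col-0 libraries, at 6.92 and 6.43 in the lhp1-3 libraries, and at 2.60 and 2.67 in those of importin123. It rose by 1.40 ± 0.19 in lhp1-3 after subtraction (adjusted p = 0.0039 by edgeR) and fell by 0.91 ± 0.20 on the log2 scale in importin123 (adjusted p = 0.0094). SEP1 and SEP3, also partners of AP1, had means of 0.185 and 0.406 RPKM above the floor in Col-0, and of 9.78 and 17.4 over the lhp1-3 libraries, against −0.233 and 0.0361 for importin123. Their importin123 direction depended on the subtraction. As deposited SEP1 rose there by 1.16 ± 0.15 (adjusted p = 5.0e-06) and SEP3 gave 0.77 ± 0.33 (adjusted p = 0.076), which passed with DESeq2 (0.61, adjusted p = 0.0298). After subtraction both passed as lower, with SEP3 at −3.27 ± 0.72, but gave −0.49 and −0.03 at 0.75 times the floor and did not pass. SEP3 also did not pass without importin123 replicate 1 (−2.75, adjusted p = 0.101) or replicate 2 (−4.26, adjusted p = 0.061). AG, SEP2 and UFO were tested as deposited only. AG and SEP2 rose by 3.03 and 4.16 in lhp1-3, above the silent-gene range, and by 2.17 and 2.75 in importin123, inside it. UFO, itself among the silent genes, rose by 1.63 and 1.88, inside the range in both.

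Genes with a pattern most like FUL, SOC1 and AGL24 were found by the Euclidean distance between centred profiles of log2(subtracted CPM + 0.5) over the 6 libraries, among 7952 genes. The nearest to FUL were AGL24 at 0.785, BAM5 at 1.01 and SEP4 at 1.09, where the median gene was at 2.92. The nearest to AGL24 were SEP4 at 0.542, MIR5026 at 0.608 and EXL4 at 0.690, with a median of 2.59. Around SOC1 they were U2.14 at 0.386, TGG2 at 0.684 and CPL3 (AT4G01060) at 0.720, with a median of 1.55.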

How the data were processed

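Poly(A) RNA from whole seedlings was sequenced in 6 libraries, with genotypes read from the titles. Per feature and library, the authors deposited a read count and an RPKM value in 1 table. FastQC, HISAT2, SAMtools, bedtools and edgeR, with the TAIR10 build, are named per the submitters' processing notes. No source used here gives their versions, settings or strandedness. Deposited counts are whole and cover each gene span, introns included. The RPKM values of the authors served for levels, the choice of silent genes and limma. Of the features, 32548 matched TAIR10.1 gene identifiers, and 32508 of 32524 compared spans were 1 base shorter there than in RefSeq, so RefSeq coordinates are printed. A count of 0 in all libraries was found for 24 features.

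The floor was the median reads per kb over the lowest 10% by mean RPKM of 23049 nuclear protein-coding genes of at least 1000 bp. It was multiplied by gene length, subtracted and rounded, with negative results set to 0. Nuclear genes whose mean height above the floor was at least the floor, with a mean of at least 10 counts left, were kept. A gene low in some genotypes thus enters where another is high, and the standard errors hold no error of the floor. Both tables were tested with edgeR 4.0.16 in R 4.3.3 (TMM, robust quasi-likelihood test, two-sided, all 6 libraries), with a Benjamini-Hochberg adjusted p under 0.05 over all 33906 or 19796 genes. The biological coefficient of variation was 0.140 and 0.143. The SE was the absolute log2 fold change over the square root of F. The steps were tested on simulated data.

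The members and gene lists were chosen with earlier results of these data known. Named genes were the 8 members, LHP1, IMPA1, IMPA2 and IMPA3, up to 3 genes per list, comparison with Col-0 and direction with the smallest adjusted p (after subtraction, or as deposited where not tested), and the 3 genes nearest to each kept member. Replicates correlated at 0.993, 0.995 and 0.992 (Pearson, log2 CPM, across features), and chi-square per degree of freedom was 28.3, 23.1 and 55.1, so no pair was a repeated library. Alternatives were RLE factors, DESeq2 1.42.0, a replicate block, only the 4 libraries compared, each library left out, other filters, limma 3.58.1 on log2(RPKM + 1) or log2(RPKM + 0.1) and floors lowered or raised by 25%, and, added after the data were seen, leaving out nuclear genes that match an organelle genome. With 2 libraries per genotype, 95% intervals cover the spread between libraries.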

Additional observations from a re-analysis of the deposited data

How the results depend on the processing

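AP1, CAL, AGL71 and AGL72 lay too near the floor to be measured after subtraction. Of 827 results for single genes under the alternatives other than leaving 1 library out, 780 kept direction and side of the threshold. Of 528 with 1 library left out 476 did, and the cause was not tested for the others. Same-numbered libraries did not deviate together across features (correlations −0.056, −0.095 and 0.040). These correlations cannot show whether same-numbered libraries shared a planting or harvest, which the labels do not state. With the replicate block, FUL in importin123 against lhp1-3 as deposited was −1.15 with an adjusted p of 0.0774 by edgeR. Members called there were 1 instead of 2, and SOC1 in lhp1-3 as deposited was 0.063. SOC1 there was also 0.019 with only the 4 libraries compared, 0.028 with nuclear genes only, 0.40 with limma on log2(RPKM + 1), 0.46 with 0.1 as the added value, and, with 1 library left out, ranged from −0.41 (without Col-0 replicate 1) to 0.45 (without Col-0 replicate 2), with 0.11 (without lhp1-3 replicate 2), 0.01 and 0.01 (without an importin123 library). With limma on the deposited RPKM, AGL24 in importin123 was 0.17 and 0.25 and FT 0.086 and 0.11; there the median of all features was 0.46 in lhp1-3 and 0.54 in importin123, against 0.17 and 0.20 in the reported fits and −0.01 and 0.03 with RLE factors, and 81.1% and 80.6% of calls were higher, against 55.5% and 56.1%. AGL24 in importin123 as deposited passed with RLE factors (−0.46, adjusted p = 0.0086) and with DESeq2 (−0.46, adjusted p = 0.0291). FUL in importin123 after subtraction was 0.12 at 0.75 times the floor, and SOC1 was −1.14 without importin123 replicate 2, 0.23 without Col-0 replicate 2 and 0.28 without importin123 replicate 1. With limma and 0.1 added, importin123 against lhp1-3 gave 1919 calls instead of 3015, 1 of them a member. At 0.75 times the floor lhp1-3 gave 6213 calls instead of 3189, and members called in importin123 were 2 instead of 1. With the floor raised by 25% FUL was not kept and members called were 1 instead of 2 in lhp1-3 and in importin123 against lhp1-3. With no filter on height they were 4 in lhp1-3 and 3 in importin123. AP1 was among them in both, at 10.19 and 7.11 (adjusted p = 0.0153 and 0.0196 by edgeR). In the Col-0 libraries AP1 was at 0.863 and 0.885 times the floor, so its subtracted counts there were 0 and the size of these values is not a measure. With 1 library left out, calls ranged from 20076 to 25287 beside 25540 (7 to 7 members) in lhp1-3, 21068 to 24625 beside 25602 (5 to 7) in importin123 and 1212 to 4131 beside 3015 (1 to 3) between the mutants as deposited, and from 888 to 3043 beside 3189 (1 to 2), 5133 to 7806 beside 8167 (1 to 2) and 2056 to 4398 beside 4436 (2 to 2) after subtraction.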
